A study of Homo sapiens with 8 samples.

Results

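Flag ChIP-seq peaks of ARID1A were counted in 4 stretches of the human genome, 1 on the short arm of chromosome 1 (29 to 56 Mb, the 1p stretch), 2 on its long arm (225 to 230 Mb and 235 to 240 Mb, the first and the second 1q stretch) and 1 at the tip of the short arm of chromosome 6 (0 to 10 Mb, the 6p stretch). A peak belonged to a stretch when its summit lay there in hg38. Of the 88053 peaks in the 6 lists, 4986 did, 3393 in the 1p stretch, 836 and 148 in the 1q stretches and 609 in the 6p stretch. The rest of chromosomes 1 and 6 held 10321 peaks. The stretches were picked because mutant lists held a larger share of their peaks there than WT lists, so that excess is given below as a description, with no test.

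All cells were Huh7, a human hepatocellular carcinoma line, with ARID1A knocked out and Flag-tagged ARID1A put back stably by lentivirus. The 3 groups, of 2 libraries each, expressed wild-type ARID1A (WT), the V2084D mutant, or V2084D with STUB1 knocked down (V2084D_shSTUB1). The peak names carry 1 knockout tag in all 6 lists and the tag shEV in the WT and V2084D lists, but the labels give neither the knockout clone nor the control of the knockdown. Immunoprecipitation was with a Flag antibody, so the lists show tagged protein only, and the protein level in each group was not measured here. The labels name input libraries for WT only. The control of each peak call and the read depth are not given here. No label ties the libraries to separate cultures, so a p-value over libraries measures their spread, which may be technical. WT library 1 had 27587 peaks in its list and library 2 had 26515. V2084D had 6000 and 12384, and V2084D_shSTUB1 had 8904 and 6663.

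ARID1A is the large DNA-binding subunit that defines the BAF form of the SWI/SNF chromatin remodelling complex, which moves nucleosomes at promoters and enhancers. It is among the chromatin genes most often mutated in cancer, liver cancer included. STUB1 (CHIP) is a ubiquitin ligase that marks chaperone-bound proteins for degradation. A ChIP-seq peak is a place where immunoprecipitated fragments pile up above the local background, and its fold enrichment is the height of that pile over background as the authors' peak caller gave it. A fold belongs to its own list, and folds of different lists stand side by side here without being compared.

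The promoters below are 5 examples from the stretches, where most peaks did not lie at a promoter. Summits within 1 kb of a RefSeq start made up 36.8% and 35.5% of the WT peaks there. In the mutant lists they made up 24.4% to 40.8%. TXLNA, H3-3A and RBM34 carried a peak in all 6 lists, whereas NID1 and TBCE carried one at the promoter in both WT lists and in no mutant list, although NID1 had other peaks within 10 kb in all 4 mutant lists. Each line is the 250 bases before the RefSeq start of the gene (GRCh38.p14), 5′ to 3′ on the strand of the gene. Capitals mark the GC box (GGGCGG), the CCAAT box (CCAAT) and the ETS core (CGGAAG), each on either strand.
TXLNA: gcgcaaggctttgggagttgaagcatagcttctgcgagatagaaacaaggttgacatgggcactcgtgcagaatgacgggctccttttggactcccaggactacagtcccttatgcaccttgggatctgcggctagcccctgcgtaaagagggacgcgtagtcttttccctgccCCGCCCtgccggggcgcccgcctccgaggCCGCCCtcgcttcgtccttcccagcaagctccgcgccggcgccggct
H3-3A: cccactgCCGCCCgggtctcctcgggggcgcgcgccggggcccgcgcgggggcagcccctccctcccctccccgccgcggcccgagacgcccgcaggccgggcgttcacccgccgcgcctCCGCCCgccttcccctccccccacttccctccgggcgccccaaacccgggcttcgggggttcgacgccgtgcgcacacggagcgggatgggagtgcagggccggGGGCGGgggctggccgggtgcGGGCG
RBM34: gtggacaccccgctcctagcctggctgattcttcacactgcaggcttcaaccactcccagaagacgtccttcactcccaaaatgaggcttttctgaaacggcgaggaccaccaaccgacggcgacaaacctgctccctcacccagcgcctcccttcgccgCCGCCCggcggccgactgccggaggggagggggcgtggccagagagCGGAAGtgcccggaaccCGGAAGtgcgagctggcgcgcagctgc
NID1: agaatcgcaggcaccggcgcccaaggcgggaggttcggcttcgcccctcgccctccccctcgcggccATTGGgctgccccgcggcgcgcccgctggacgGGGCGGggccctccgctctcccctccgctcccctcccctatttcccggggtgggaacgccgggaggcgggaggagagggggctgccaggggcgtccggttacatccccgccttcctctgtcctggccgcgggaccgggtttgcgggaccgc
TBCE: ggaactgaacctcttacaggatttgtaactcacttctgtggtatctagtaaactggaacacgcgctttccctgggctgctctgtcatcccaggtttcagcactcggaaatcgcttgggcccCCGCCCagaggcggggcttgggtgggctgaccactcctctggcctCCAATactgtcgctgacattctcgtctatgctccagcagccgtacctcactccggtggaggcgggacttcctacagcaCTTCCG

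The lines lie at chr1:32179425-32179674 (TXLNA, plus strand), chr1:226062197-226062446 (H3-3A, plus), chr1:235161251-235161500 (RBM34, minus), chr1:236065091-236065340 (NID1, minus) and chr1:235367177-235367426 (TBCE, plus). The last GC box of H3-3A runs on past the start of the gene. The summit in the first WT list lay 51 bp upstream of the start of H3-3A, 27 bp upstream of RBM34, 212 bp upstream of NID1, and 191 and 100 bp downstream of the starts of TXLNA and TBCE. All 5 promoters hold a GC box, so that box alone does not separate the kept from the lost ones shown here. Of the 431 protein-coding genes in the stretches, 364 had a promoter in the RefSeq table, with 497 windows of 300 bases (250 before and 50 after each start).

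Both WT lists had a peak in 306 of these windows, and all 4 mutant lists had one in 184 of the 306 (60.1%, against 14.0% of all promoter windows with a peak in both WT lists). Windows kept in all 4 mutant lists (184) had a GC box in 84.2% of cases and those with a WT peak but not all 4 mutant peaks (122) in 81.1%. Windows of the stretches with no peak in any list (124) had one in 33.1%, and all 22199 promoter windows in 56.3%. The ETS core was in 34.2%, 36.1%, 7.26% and 23.7% of the same 4 sets. CCAAT was in 43.5%, 37.7%, 39.5% and 34.7%. Matches to the AP-1 site (TGANTCA) were in 3.26%, 4.10%, 8.06% and 6.15%, and TATAAA was in 3.26%, 2.46%, 10.5% and 9.47%. Occupied windows of the stretches thus held GC boxes and ETS cores more often than unoccupied ones did, while kept windows and those not kept had like shares. Genome-wide, windows with a peak in both WT lists (9639) had a GC box in 77.7% and an ETS core in 35.2%. Those also kept in all 4 mutant lists (1348) had them in 78.8% and 41.3%. In the stretches the median base composition was 68.0% G and C in kept, 69.2% in not kept and 57.3% in unoccupied windows.

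The 4 stretches took 3.03% and 3.15% of the WT lists, 10.8% and 10.1% of the V2084D lists, and 8.49% and 9.89% of the V2084D_shSTUB1 lists. No mutant library came near the WT values. The ratio of the group means (geometric) was 3.39 for V2084D over WT, a log2 ratio of 1.76 with 1.69 to 1.84 over the 4 library pairs. For V2084D_shSTUB1 over WT it was 2.97, a log2 ratio of 1.57 with 1.43 to 1.71 over the pairs. Over the rest of chromosomes 1 and 6 the log2 ratios were 0.20 and 0.27. The share of V2084D_shSTUB1 was below that of V2084D by 0.19 on the log2 scale (pairs from −0.35 to −0.03), and all 4 library pairs had that sign. By a two-sided exact permutation test over libraries p was 0.333, the smallest that 2 libraries against 2 can give, so the spread over libraries cannot settle it.

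**Figure D1:**
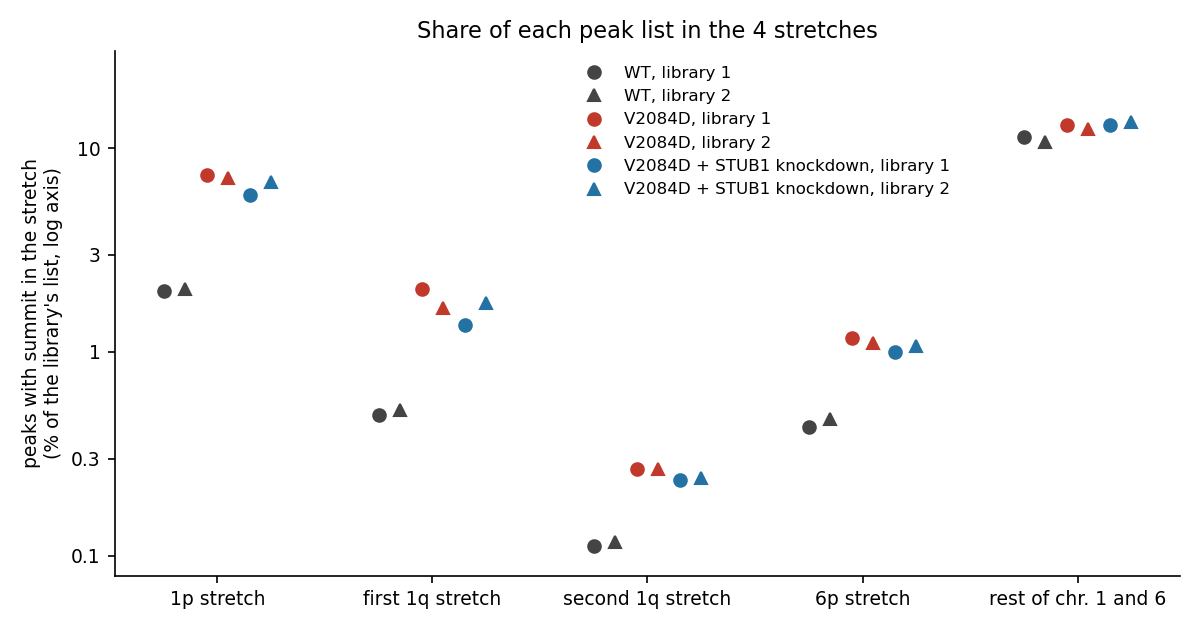
Peaks of each list with a summit in each stretch and in the rest of chromosomes 1 and 6, as percent of that list (log axis); colours are groups and symbols the 2 libraries of a group. In every stretch all 4 mutant libraries lie above both WT libraries. In the rest of chromosomes 1 and 6 they do so too, but by less, and the 6 libraries lie between 10.7% and 13.5%.

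Peak numbers give another view of the same lists. In the 1p stretch the lists held 550 and 541 peaks (WT), 441 and 880 (V2084D) and 525 and 456 (V2084D_shSTUB1). V2084D library 2 thus had more peaks there than either WT list, although its whole list was far shorter than theirs. The first 1q stretch held 136 and 138 (WT), 122 and 203 (V2084D), and 121 and 116 (V2084D_shSTUB1). Counts in the second 1q stretch were 31 and 31, 16 and 33, and 21 and 16, and in the 6p stretch 118 and 124, 70 and 137, and 89 and 71. Over the rest of chromosomes 1 and 6 the WT lists held 3112 and 2844 peaks and the mutant lists 778 to 1531. Over all 4 stretches the WT lists held 835 and 834 peaks and the mutant lists 649 to 1253, so mutant counts lay on both sides of the WT counts, whereas in the rest of both chromosomes every mutant count lay below them. In the second 1q and the 6p stretch only V2084D library 2 exceeded the WT counts.

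The excess differed in size between stretches. For V2084D over WT the log2 ratio was 1.84 in the 1p stretch, 1.85 in the first 1q stretch, 1.22 in the second and 1.35 in the 6p stretch. For V2084D_shSTUB1 over WT the values were 1.66, 1.60, 1.05 and 1.21. The second 1q stretch rests on the fewest peaks, and its ratios came closest to 0 among the settings. With fold enrichment of at least 5 its V2084D_shSTUB1 value was 0.01 and its V2084D value 1.56. With lists of equal length they were 0.58 and 0.88. Between the mutant groups, 3 of the 4 stretches gave p = 0.333 and the first 1q stretch p = 0.667 by the same exact test.

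A log2 share ratio to WT above 1, met by every mutant library, marks the stretches in 5-Mb windows that average 30 or more WT peaks. Of 304 such windows, 9 passed (2.96%), all inside the stretches. The stretches were picked for this excess, so that placement restates the choice. The lowest values inside belonged to the second 1q stretch (1.04) and to the upper part of the 6p stretch (1.06). Just outside were a window on chromosome 15 from 70 to 75 Mb (0.97), 1 on chromosome X from 115 to 120 Mb (0.94) and the window between the 1q stretches, 230 to 235 Mb (0.90). That last window took 0.243% and 0.238% of the WT lists and 0.449% to 0.501% of the mutant lists. The gap between the 1q stretches therefore carried an excess of nearly the same size as the second of them.

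In bins of 1 Mb with at least 5 WT peaks, the excess was spread along the stretches. All 4 mutant libraries exceeded the mean WT share in 37 of 38 such bins of the stretches and in 53 of 204 bins of the rest of chromosomes 1 and 6. The log2 excess passed 1 in all 4 in 27 of 38 and in 2 of 204. Of the 23 such bins of the 1p stretch 19 passed, of 5 in the first 1q stretch all 5, of 2 in the second 1, and of 8 in the 6p stretch 2. The 6p stretch thus had the fewest passing bins of the larger 3, although all 4 mutant libraries exceeded the WT share in 7 of its 8. How even the excess was along a stretch was not tested.

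At the edge of the 1p stretch that faces the chromosome end, the mutant shares over the 3 Mb outside were 0.97 to 1.29 times the WT mean and over the 3 Mb inside 2.97 to 4.33 times. At its other edge they were 0.53 to 1.62 times outside and 1.90 to 3.30 times inside. At the inner edge of the 6p stretch they were 0.51 to 0.94 times outside and 1.54 to 3.21 times inside. The inside ratios at this 6p edge rest on 8 to 20 peaks per mutant list, with 0 in the 1-Mb bin next to the edge. At these 3 edges the range of ratios inside lay wholly above the range outside. The same held at 3 edges of the 1q stretches, but there the shares outside already stood above the WT mean. Below the first 1q stretch they were 1.48 to 1.98 times outside and 2.75 to 3.35 times inside. At its upper edge they were 1.77 to 2.62 times outside and 2.71 to 4.53 times inside. At the lower edge of the second 1q stretch they were 1.58 to 1.80 times outside and 2.12 to 2.40 times inside, so the gap between the 1q stretches was raised at both ends. Over the last 3 Mb of the second 1q stretch the ratios ran from 0 to 1.5, on 0 to 2 peaks per mutant list, so its excess lay in its lower part.

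The ARID1A gene itself, which was knocked out in these cells and is carried by the lentivirus, ends 2.22 Mb below the 1p stretch and outside it. YTHDF2, an m6A reader that lies just below that edge, had 1 peak within 10 kb in each list but for V2084D_shSTUB1 library 2, which had 2. TMEM200B, just above it, had 1 or 3 in the WT lists and 1 in each mutant list. Peak counts at these genes on either side of this edge therefore looked alike. At the other 1p edge, USP24 inside and PLPP3 outside had 1 or 2 peaks in every list. CNIH3 and LBR, at the lower edge of the first 1q stretch, had 0 to 2. Other edges differed. TFAP2A, outside the 6p stretch, had 7 and 7 in the WT lists and 0 to 2 in the mutant lists. SLC35B3, inside it, had 1 and 2, and 0 or 1. FMN2, above the second 1q stretch, had 3 and 2, and 0 or 1. RYR2, inside it, had 1 and 2, and 0 to 2.

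A WT region is a place where peaks of both WT libraries share 1 bp or more, and there were 16157, of which 488 lay in the stretches. A V2084D peak in both libraries covered 323 of the 488 (66.2%, Wilson 95% interval 61.9 to 70.2%), and both V2084D_shSTUB1 libraries covered 342 (70.1%, 65.9 to 74.0%). Over the whole genome the shares were 21.3% and 23.2%. The stretches were chosen on the same contrast, so their higher shares restate the excess in terms of WT regions. In the 1862 WT regions of the rest of chromosomes 1 and 6 they were 25.5% and 29.2%. All 4 mutant libraries covered 275 regions of the stretches (56.4%), against 16.5% of the rest of both chromosomes and 13.0% of all WT regions. Only 35 (7.17%) had no mutant peak at all, against 29.9% and 34.9%.

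The stretches held differing shares. All 4 mutant libraries covered 59.9% of the 314 WT regions of the 1p stretch, 65.4% of the 81 of the first 1q stretch, 38.9% of the 18 of the second and 36.0% of the 75 of the 6p stretch. Single libraries covered 70.1% and 83.6% (V2084D) and 84.8% and 74.4% (V2084D_shSTUB1) of the WT regions of the stretches, against 32.3%, 51.6%, 48.1% and 37.1% of those in the rest of both chromosomes. The ranges of the mutant groups overlapped, and V2084D library 1 gave the lowest share in both places.

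Median WT folds were close in the stretches and the rest, but the stretches held more of the strongest WT regions. The median WT fold enrichment of a WT region was 5.27 and 4.84 in the lists of WT libraries 1 and 2 within the stretches, and 5.15 and 4.88 in the rest of both chromosomes. The strongest of 10 bins by WT rank held 81 of the 488 WT regions of the stretches and 192 of the 1862 of the rest. In each of these 10 bins, each of the 4 mutant libraries covered a larger share of WT regions in the stretches than in the rest. For V2084D library 1 the share ran from 93.8% in the strongest bin to 28.2% in the weakest within the stretches, and from 72.9% to 11.1% in the rest. For V2084D library 2 it ran from 100% to 64.1% and from 89.1% to 22.2%. Strong WT regions were kept more often than weak ones in both places.

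**Figure D2:**
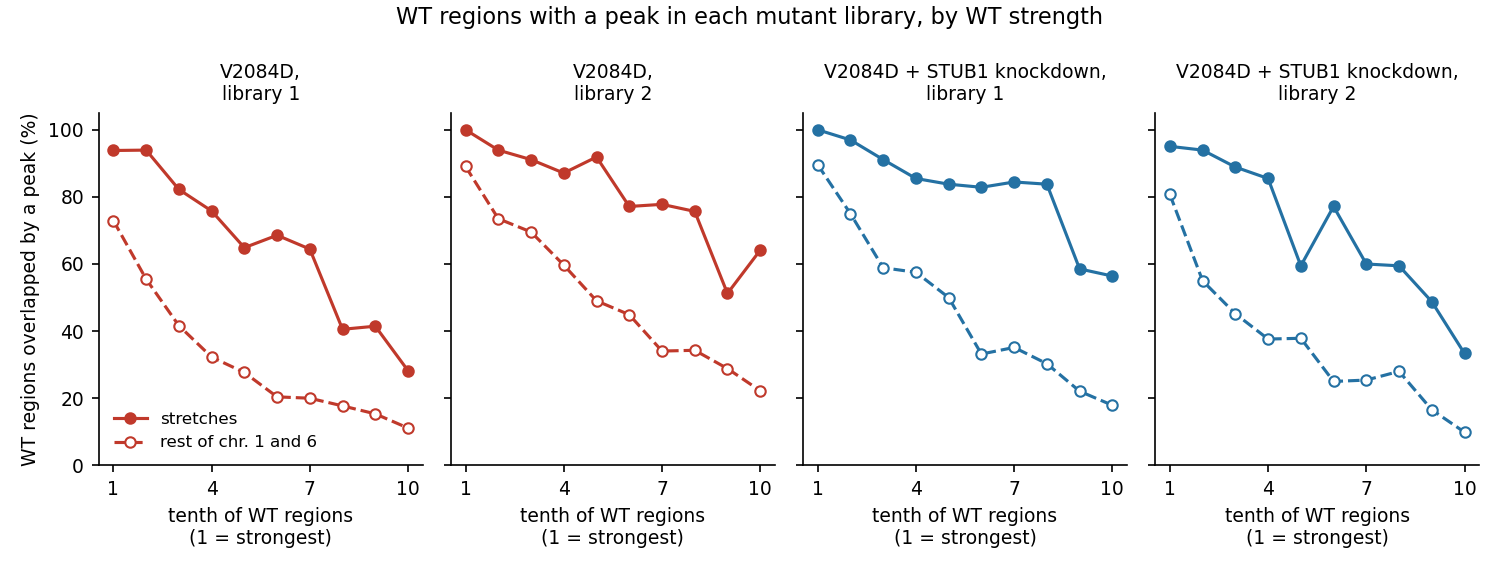
Share of WT regions overlapped by a peak of each mutant library, in 10 bins of WT regions by strength (1 is the strongest), for the stretches (filled, solid) and the rest of chromosomes 1 and 6 (open, dashed). The solid line lies above the dashed line in all 10 bins of each of the 4 libraries, and both fall towards weak regions.

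WT regions with no V2084D peak but a peak in both V2084D_shSTUB1 libraries numbered 13 in the stretches (2.66%), 58 in the rest of both chromosomes (3.11%) and 398 over the genome (2.46%). Those with both V2084D peaks and no V2084D_shSTUB1 peak numbered 2 (0.410%), 48 (2.58%) and 436 (2.70%). The counts of 13 and 2 depend on single libraries, since they became 58 and 6 without V2084D library 2 and 17 and 38 without V2084D_shSTUB1 library 1, the second of which turns their order. With 2 libraries a group, no test over libraries was made of them. Among the 13, and named after their values were seen, were regions at ZNF678 (a zinc finger protein), AZIN2 (an antizyme inhibitor that acts on polyamine synthesis) and SDC3 (syndecan 3, a cell-surface proteoglycan). The absence of a V2084D peak concerns these regions and not all peaks near the genes. Within 10 kb SDC3 had 3 and 6 peaks in the V2084D lists, whereas ZNF678 had 0 in both. One of the 2 lay near TUBB2A, a beta tubulin.

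Mutant peaks without any overlapping WT peak made up a larger share in the stretches than in the rest of both chromosomes, which the choice of the stretches by their mutant excess favours, so the shares are a description. Of the 394 regions shared by both V2084D libraries in the stretches, 27 had no WT peak (6.85%, Wilson 95% interval 4.75 to 9.79%), against 12 of 500 in the rest of both chromosomes (2.40%) and 2.32% of all V2084D regions. For V2084D_shSTUB1 they were 22 of 419 (5.25%, 3.49 to 7.82%), 8 of 573 (1.40%) and 1.56%. In single lists the shares were larger. They were 27.4% and 51.0% in V2084D libraries 1 and 2, and 23.7% and 23.8% in the V2084D_shSTUB1 libraries, against 10.5%, 19.6%, 6.82% and 7.46% in the rest of both chromosomes.

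These peaks without a WT counterpart had their summits at gene ends less often than the others of the same list. In V2084D library 2, 639 of its 1253 peaks in the stretches were of this kind, and 7.36% of them had their summit within 1 kb of a gene end, against 48.0% of those that overlapped a WT peak. In the other 3 mutant lists the shares at gene ends were 10.7% to 14.0% against 49.9% to 56.5%. Few recurred, since only 11.7% of those in V2084D library 2 overlapped a peak in another mutant list, and 26.4% to 33.8% of those in the other 3 did. Their median fold, 3.97 in V2084D library 2, was below the 4.47 of peaks with a WT counterpart in the same list. These traits were not particular to the stretches. In the rest of both chromosomes the shares at gene ends were 10.4% to 21.5% against 59.2% to 65.5% in the mutant lists. There 10.7% to 29.9% of the peaks without a WT counterpart recurred, and the medians in V2084D library 2 were 3.97 and 4.22.

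A peak in all 4 mutant libraries and in no WT list occurred at 7 V2084D regions of the genome, of which 3 lay in the 1p stretch and 2 in the rest of chromosomes 1 and 6. The first of the 3, at chr1:31162295-31163182, lay more than 10 kb from any end of a protein-coding gene. Another, at chr1:34924718-34925512, lay near DLGAP3, a postsynaptic scaffold gene, with folds of 4.16, 5.46, 6.11 and 3.49. One of the 2 regions outside, at chr1:230082913-230083493, lay in the gap between the 1q stretches.

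By the rule for named genes, the strongest V2084D regions without a WT peak lay near RAD54L, LAPTM5 and SLC2A1. The region upstream of RAD54L, a helicase of homologous recombination, had folds of 4.69 and 4.40 in the V2084D lists and 5.01 in V2084D_shSTUB1 library 2. Inside LAPTM5, which encodes a lysosomal membrane protein of blood cells, they were 4.93 and 6.22 in the V2084D lists, with no peak under STUB1 knockdown. At 8531 bp upstream of SLC2A1, the glucose transporter GLUT1, they were 7.0 and 5.35, and 4.43 in V2084D_shSTUB1 library 1. For V2084D_shSTUB1 the rule gave PPCS, an enzyme of coenzyme A synthesis, EDN2, the peptide hormone endothelin 2, and PXDC1. None of the 6 regions had a peak in all 4 mutant lists. The absence of a WT peak concerns these regions and not all peaks near the genes. The promoter windows of RAD54L, SLC2A1 and PPCS had a peak in both WT lists. LAPTM5 had 1 peak within 10 kb in each WT list.

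Position relative to genes was not used to choose the stretches, but peak counts of the mutant lists against WT were. Comparisons with WT below are therefore not independent of that choice. In the stretches, 39.3% and 40.05% of WT peaks had the summit 1 kb or less from an end of a protein-coding gene. For V2084D these shares were 43.9% and 27.3%, and under STUB1 knockdown 41.4% and 42.5%. In the rest of both chromosomes the shares were 46.7% and 47.9%, 59.8% and 52.3%, and 58.5% and 55.6%. V2084D library 2, the longest mutant list, stood apart as the lowest in the stretches. V2084D minus WT was −4.06 percentage points in the stretches (n = 2 libraries each; exact permutation p = 1) and 8.70 in the rest of both chromosomes (exact permutation p = 0.333). Without V2084D library 2 the difference in the stretches was 4.25, the opposite sign. V2084D_shSTUB1 minus V2084D was 6.34 in the stretches (exact permutation p = 1) and −1.97 without that library.

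The step between stretches and rest within a list was −7.64 ± 0.284 percentage points in WT (SD, n = 2), −20.4 ± 6.44 in V2084D and −15.1 ± 2.82 in V2084D_shSTUB1. Both mutant groups lay below both WT libraries with no overlap, and p was 0.333 for each by the exact permutation test, its smallest value. The mutant lists thus had fewer of their peaks at gene ends inside the stretches than outside, by a wider margin than the WT lists. The test cannot reach 0.05 with these libraries. Peaks without a WT counterpart made up more of the mutant lists in the stretches and lay less often at gene ends. Mutant peaks with a WT counterpart also lay at gene ends less often in the stretches (48.0% to 56.5%) than in the rest (59.2% to 65.5%). How much either kind of peak adds to the step was not tested. The step compares mutant with WT lists, the contrast that chose the stretches, and is given as a description. The median width of a peak in the stretches was 538 and 492 bp in the WT lists, 435 and 422 bp in V2084D, and 537 and 477 bp in V2084D_shSTUB1, and the V2084D peaks were the narrower ones in each library pair (exact permutation p = 0.333 for each comparison). V2084D minus WT was −86.5 bp in the stretches and −95.5 bp in the rest of both chromosomes, so that difference was not particular to the stretches. V2084D_shSTUB1 minus V2084D was 78.5 bp in the stretches and 12.5 bp in the rest, where the library pairs ran from −27.5 to 52.5 bp.

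Among the 1000 strongest peaks of each list by −log10 q, the WT lists placed 58 and 56 in the stretches, the V2084D lists 152 and 164, and the V2084D_shSTUB1 lists 161 and 162. Ties at the last rank brought the number counted to between 1006 and 1019 per list. It uses the contrast that chose the stretches and adds no separate support.

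At genes, a WT region lay 10 kb or less from an end of 337 of the 431 protein-coding genes of the stretches (78.2%, against 61.9% of all protein-coding genes). Of these 337, 269 had a peak in all 4 mutant lists (79.8%), against 27.3% in the rest of both chromosomes and 24.8% genome-wide. With −log10 q of at least 5 the count was 101 of 225 genes, and with lists of equal length 145 of 158. By stretch the counts were 203 of 243, 38 of 44, 7 of 14 and 21 of 36, in the order 1p, first and second 1q, and 6p. CAGE1, a cancer-testis gene in the 6p stretch, was the only gene with a WT region and no mutant peak within 10 kb (genome-wide 18.5% of genes with a WT region). Its folds were 6.72 and 4.73 in the WT lists. The region is shared with RIOK1, which had 1 peak within 10 kb in V2084D library 1 and 1 in V2084D_shSTUB1 library 2.

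**Figure D3:**
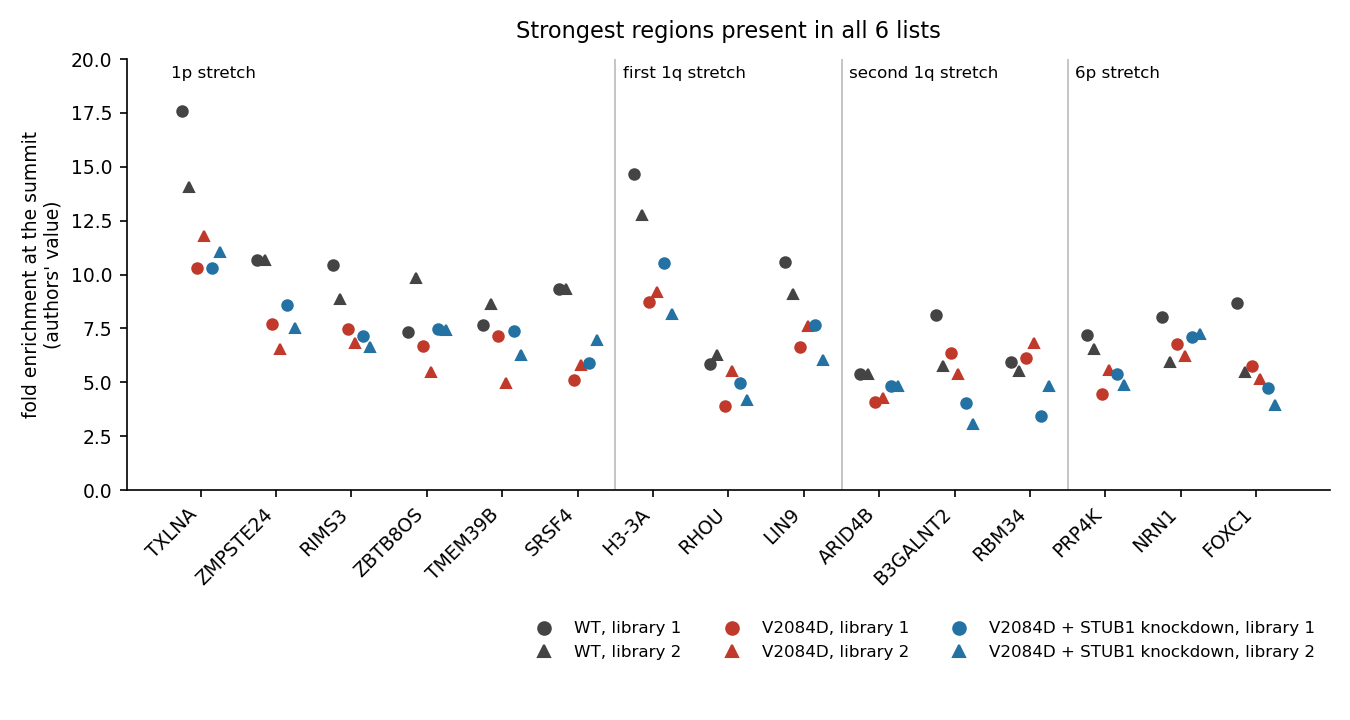
Fold enrichment, as the authors' caller gave it, in each of the 6 lists at the strongest regions within 10 kb of a gene end that are present in all lists, 6 for the 1p stretch and 3 for each other stretch, named by the nearest gene. Every region has 6 points; folds of different lists are shown side by side, not compared.

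Among regions within 10 kb of a gene end, the strongest of the stretches present in all 6 lists lay at the start of TXLNA, a syntaxin-binding protein of vesicle traffic (chr1:32179303-32180859). Its WT folds were 17.6 and 14.1, those under V2084D 10.3 and 11.8, and those with STUB1 knockdown 10.3 and 11.02, and it ranked between 10 and 33 in every list. The region upstream of ZMPSTE24, the protease that matures lamin A, had folds of 10.7 and 10.7, 7.69 and 6.55, and 8.57 and 7.50. Next came a region at one end of RIMS3, which is also the start of NFYC, a subunit of the CCAAT-binding factor NF-Y, with 10.5 and 8.88, 7.48 and 6.81, and 7.17 and 6.64. The region at ZBTB8OS, the tRNA ligase cofactor archease, is shared with RBBP4, a histone chaperone of several chromatin complexes. TMEM39B and SRSF4, a splicing factor, completed the 6 of the 1p stretch. Each of these stood among the 500 strongest peaks of all 6 lists.

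In the first 1q stretch the strongest shared region near a gene lay at the start of H3-3A, which encodes the replacement histone H3.3 (chr1:226061742-226063877). Its WT folds were 14.7 and 12.8, the V2084D lists gave 8.74 and 9.18, and the V2084D_shSTUB1 lists 10.5 and 8.17. LIN9, a subunit of the DREAM and MuvB complexes that control cell cycle genes, had 10.6 and 9.12, 6.63 and 7.63, and 7.66 and 6.06. A region 9594 bp from RHOU, a small GTPase, had folds of 3.88 to 6.28 and lies inside the 5S ribosomal RNA gene array.

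That array, chr1:228610266-228646158, holds 17 near-identical 5S rRNA genes (RNA5S1 to RNA5S17), which RNA polymerase III transcribes. Every one of the 17 lay under a peak in all 6 lists. Peaks covered 94.7% and 93.4% of its 35893 bp in the WT lists, 81.1% and 88.9% in V2084D, and 86.8% and 81.4% in V2084D_shSTUB1. The widest single peak measured 9590 bp, in WT library 1. Reads of such copies cannot be placed with certainty, and how repeated alignments were treated is not given in the sources used here, so the values of single copies are uncertain. Without the array the log2 ratio of the share of all 4 stretches was 1.75 for V2084D over WT and 1.56 for V2084D_shSTUB1 over WT.

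In the second 1q stretch, among regions within 10 kb of a gene end, those strongest in all lists lay near ARID4B (shared with GGPS1), B3GALNT2 and RBM34. ARID4B is a subunit of a Sin3 histone deacetylase complex, GGPS1 makes geranylgeranyl diphosphate, B3GALNT2 is a glycosyltransferase and RBM34 an RNA-binding protein. The WT folds at RBM34 were 5.96 and 5.53, the V2084D lists gave 6.13 and 6.83, and the V2084D_shSTUB1 lists 3.42 and 4.82. A region 32213 bp from the nearest gene end, at chr1:236097024-236097565 in WT library 2, was the strongest peak by −log10 q of this stretch in 5 of the 6 lists at folds of only 3.03 to 4.29.

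In the 6p stretch the 3 strongest shared regions near genes had their summits 2766 bp upstream of PRP4K, a splicing kinase, 1979 bp upstream of FOXC1, a forkhead transcription factor, and 251 bp outside an end of NRN1, a neurite growth factor. The WT folds at FOXC1 were 8.68 and 5.47, the V2084D lists gave 5.77 and 5.17, and the V2084D_shSTUB1 lists 4.72 and 3.95. At NRN1 they were 8.04 and 5.96, 6.80 and 6.23, and 7.08 and 7.23.

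WT regions without any mutant peak were few and weak. The 35 of them in the stretches had median WT folds of 4.03 and 3.87, against 5.94 and 5.38 for the 275 kept in all 4 mutant lists. After CAGE1, the strongest by rank in both WT lists lay at NID1 (nidogen 1, a basement membrane protein; folds 4.58 and 4.46), TBCE (a tubulin-folding cofactor; 3.49 and 3.83), TUT4 (a uridylyltransferase of small RNAs; 6.51 and 4.19), UQCRH (a subunit of respiratory complex III; 4.10 and 4.12) and TRIM11 (a ubiquitin ligase; 4.63 and 4.05). The absence concerns these regions and not all peaks near the genes. NID1, UQCRH and TRIM11 had other peaks within 10 kb in all 4 mutant lists, TUT4 in 3 and TBCE in V2084D library 2.

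Gene groups of the stretches were followed by 8 lists of 137 names, of which 135 lay in the stretches and 2 did not. WT regions were present at 106 of the 135, and 81 of these 106 had a peak in all 4 mutant lists (76.4%, against 79.8% of all genes of the stretches with a WT region). None of the 106 was without any mutant peak. The lists together were therefore close to the stretches as a whole. Folds below are those of the strongest peak within 10 kb of the gene.

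All 13 genes of the cell cycle and mitosis list had a WT region, and 12 had a peak in all 4 mutant lists. The exception was ORC1, a subunit of the replication origin complex. CDKN2C, an inhibitor of CDK4 and CDK6, had folds of 8.38 and 9.28 in the WT lists, 5.81 and 5.87 in V2084D, and 8.45 and 7.40 in V2084D_shSTUB1. CDC20, an activator of the anaphase-promoting complex, had 6.74 and 5.81, 7.38 and 6.49, and 6.26 and 6.50, in a neighbourhood shared with ELOVL1.

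Of 15 splicing and RNA-binding genes 12 had a WT region and 10 of them all 4 mutant peaks. SF3A3, of the U2 snRNP, had folds of 7.31 and 9.09, 9.83 and 7.56, and 12.2 and 5.56. MAGOH, of the exon junction complex, had 8.63 and 8.57, 4.90 and 7.10, and 5.83 and 6.27, its region being shared with CPT2. For chromatin and histone genes the counts were 15 of 17 and 12 of 15. H2BC26, a histone H2B gene of the first 1q stretch, had folds of 13.004 and 10.4, 6.26 and 6.16, and 7.77 and 5.72. KDM4A, a histone demethylase, had 10.6 and 7.72, 7.21 and 5.90, and 5.83 and 7.13.

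In the small RNA pathway AGO1 and AGO3, Argonaute proteins encoded next to each other, shared 1 region with folds of 5.81 and 6.18 in the WT lists, 5.16 and 4.18 in V2084D, and 4.50 and 4.83 in V2084D_shSTUB1. The translation and protein import list had WT regions at 17 of 19 genes and all 4 mutant peaks at 11 of the 17, the lowest share of the 8 lists (64.7%). TOMM20, a receptor of mitochondrial protein import in the second 1q stretch, lacked a peak in V2084D_shSTUB1 library 2 only. YRDC, an enzyme of tRNA modification, had folds of 10.2 and 10.7 in WT and 6.41 to 7.30 in the mutant lists. It shares its strongest WT region with MTF1, the metal-responsive transcription factor. The folds at MTF1 were the same in the WT and V2084D_shSTUB1 lists but 5.47 and 6.37 in the V2084D lists.

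Liver and lipid genes had WT regions at 18 of 25, and 13 of the 18 had all 4 mutant peaks. CPT2, of mitochondrial fatty acid uptake, EPHX1, the microsomal epoxide hydrolase, and ELOVL1, a fatty acid elongase, were among them. EPHX1 had folds of 6.64 and 6.56, 4.54 and 3.94, and 6.90 and 5.38. No list held a peak near the cytochrome P450 genes CYP4A11, CYP4A22, CYP4B1 and CYP4X1 or near F13A1 (a clotting factor subunit). These genes of the list thus had no peak in WT or mutant lists.

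Developmental transcription factors had WT regions at 15 of 22 genes, 11 of them with all 4 mutant peaks. FOXJ3, a forkhead factor, had folds of 9.96 and 5.59, 5.06 and 7.88, and 5.24 and 5.07. FOXE3, TAL1 and IRF4 had no peak in any list. Among ligands and receptors the counts were 13 of 20 and 10 of 13. LEFTY1, a secreted inhibitor of Nodal signalling, had folds of 5.97 and 6.17, 4.90 and 5.34, and 4.59 and 3.72. WNT9A, a Wnt ligand, had 6.31 and 6.41, 6.67 and 7.28, and 5.37 and 5.11. RLF (a zinc finger protein) and EPHA10 (an ephrin receptor) had a peak in all 4 mutant lists and in WT library 2, and so had no WT region.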

How the data were processed

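Flag ChIP-seq was done on ARID1A-knockout Huh7 cells that stably express tagged ARID1A, with 2 libraries in each of 3 groups. The submitters' processing notes name Trimmomatic, Bowtie2, SAMtools, Picard, MACS2, bedtools, deepTools and hg38, with no settings, which the sources used here do not give. The authors deposited 1 peak list per library. Per the values in the deposited lists, each peak has a fold enrichment (a ratio over background, given by the authors' caller), a −log10 p and a −log10 q from the same caller, and a whole-number score of 10 times −log10 q deposited by the authors, which was not used for tests.

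Peaks were placed by summit. Libraries of a group were joined where peaks overlapped by at least 1 bp. Genes were the 19866 protein-coding genes of RefSeq GRCh38.p14 (190 entries were left out), with a window of 10 kb for peaks near genes and 1 kb for gene ends. Promoter sequences are from RefSeq, and 364 of 431 genes matched. Strength is the rank by −log10 q within a list. Named genes are those nearest to the regions with the best worst rank over the lists concerned, plus up to 4 per gene list. Members, bounds and gene lists were chosen with earlier results of these data known. Wilson 95% intervals cover counting error only. Group differences were tested with two-sided exact permutation over libraries, which cannot give less than 0.333. Alternatives were the overlap rule, strength filters, equal list lengths, the denominator, the bounds and leaving out each library. The counting code was tested on simulated data. Python 3.11.15, pandas 2.3.3, numpy 2.4.6, scipy 1.17.1 and matplotlib 3.10.9 were used. Results at a few withheld genes are not reported here.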

Additional observations from a re-analysis of the deposited data

How the results depend on the processing

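The log2 ratio of the stretch share kept its sign in every setting run. For V2084D over WT it was 1.95 with −log10 q of at least 5, 1.86 with fold of at least 5, 1.42 with lists of equal length and 1.05 with the peaks of chromosomes 1 and 6 alone as denominator, and 1.71 to 1.81 with 1 library left out. For V2084D_shSTUB1 over WT the q filter gave 1.82, equal lengths 1.29 and that denominator 0.90, and leaving out a library gave 1.46 to 1.68. V2084D_shSTUB1 over V2084D ran from −0.30 to −0.08 with a library left out. The covered share of WT regions in the stretches minus the rest (both V2084D, both V2084D_shSTUB1, all 4) was 40.7, 40.9 and 39.9 percentage points. It was 31.3, 36.1 and 28.5 with an overlap of 50% of both peaks, 26.1, 25.6 and 19.0 with summits within 200 bp, 33.2, 35.5 and 25.6 with the q filter, and 28.2, 24.9 and 17.4 with the fold filter. Equal lengths gave 38.6 for V2084D_shSTUB1 and 48.3 for all 4, and leaving out a library gave 25.4 to 37.8, 25.1 to 37.3 and 23.9 to 42.5. The share of V2084D regions without a WT peak was 13.8% with 50% overlap, 15.7% by summits, 4.69% with the q filter, 12.7% with the fold filter, 31.2% with equal lengths and 9.64% to 51.0% with a library left out. For V2084D_shSTUB1 it was 12.6% with 50% overlap, 15.99% by summits, 15.2% with the fold filter, 31.5% with equal lengths and 8.11% to 23.8% with a library left out. Leaving out a library of the same group raises these shares by construction, since single lists then count. V2084D minus WT in gene-end share ran from −12.4 to 4.25 percentage points and V2084D_shSTUB1 minus V2084D from −1.97 to 14.7 with a library left out; both changed sign without V2084D library 2. The cause of these shifts was not tested. With the replicate number as a block the log2 ratios were 1.76 and 1.57 over WT, given with no test, and −0.19 between the mutant groups, and the gene-end differences −4.06 and 6.34. Same-numbered libraries had deviations of peak shares in 5-Mb windows correlated at −0.02, 0.07 and −0.02. These values cannot tell whether such libraries shared a culture or a batch, which the labels do not give. The denominator of assembled chromosomes, the ratio without the 5S array, the start-site measure, the gene counts by setting and the counts of 13 and 2 without single libraries were chosen after seeing the data. Read depth is unknown, so list length stands in its place.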
